A study of Mus musculus with 21 samples.

Results

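The genes described here are 10 interferon-inducible GTPases of mouse embryonic fibroblasts (MEFs): the guanylate-binding proteins Gbp2, Gbp3, Gbp5 and Gbp7, and the immunity-related GTPases Igtp, Irgm1, Irgm2, Iigp1, Gm12250 and Tgtp1. They were selected by gene symbol on their normalized levels in all 7 groups of libraries, and 10 of 10 were found among the 24454 genes of the deposited table and among the 13719 genes with enough counts to be tested. Because the levels in every group were in view when the genes were picked, their levels and differences are given as a description, without a p-value. Where some of the 10 are said to pass a test threshold, that too is a description, and the test supports nothing.

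RNA was sequenced from 21 libraries, 3 in each of 7 groups. MEFs with floxed alleles of Rtel1, which codes for a helicase that unwinds G4-DNA and telomeric t-loops, were infected with an adenovirus that carries GFP (Rtel1 F/F +GFP) or Cre (Rtel1 F/F +Cre), or were infected with the GFP virus and treated with TMPyP4, a ligand that stabilizes G4-DNA. Cells of the same floxed genotype that also express the t-loop unwinding mutant RTEL1 C1252A/C1255A from a transduced vector were infected with GFP or Cre, so that Cre removes the endogenous gene and leaves the mutant, and its +GFP cells hold both. MEFs floxed for Terf1 (Trf1 f/f in the labels), which codes for a shelterin protein, were infected with GFP or Cre. No group received Cre without a floxed gene, so Cre itself and the deletion cannot be told apart within a line. TMPyP4 was given at 10 μM for 48 h. The Rtel1 F/F cells were collected 96 h after infection, and the time for the Terf1 F/F cells is not given in the sources used here. Libraries held between 32069888 and 51938593 counts. The labels call the 3 libraries of a group biological replicates without saying whether they came from separate cultures, animals or MEF lines. Each SD measures the spread between the 3 libraries of a group. Each SE comes from a fit that estimates the spread within groups over all 21 libraries. The level of Rtel1 was 66.2, 59.1 and 60.2 CPM (counts scaled for library size and composition) in Rtel1 F/F +GFP cells and 29.9, 31.9 and 26.8 in +Cre cells, a log2 change of -1.07 ± 0.08 (SE; adjusted p = 5.4e-09), and between 253 and 338 CPM in the 6 libraries with the mutant vector. Terf1 was between 27.9 and 30.3 CPM in Terf1 F/F +GFP cells and between 0.0268 and 0.11 in +Cre cells. Counts are of whole genes, so they do not separate the floxed exons from the rest.

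Interferons bind receptors that activate the kinases JAK1, TYK2 and JAK2, which in turn activate transcription factors. A complex that holds STAT2 and IRF9 binds the interferon-stimulated response element (ISRE), and the response to interferon gamma also runs through the gamma-activated site (GAS). Guanylate-binding proteins (GBPs) and immunity-related GTPases (IRGs) are among the genes most strongly induced by these routes in mouse cells, fibroblasts included. GBPs are large dynamin-like GTPases that coat the vacuoles of intracellular bacteria and parasites, and some of them are anchored in membranes by a prenyl group. Among the IRGs, Irgm1, Irgm2 and Igtp (also called Irgm3) code for regulators that sit on the membranes of the host cell and hold effector IRGs inactive there. Iigp1 (Irga6), Tgtp1 (Irgb6) and Gm12250 (Irgb10) code for effectors that load onto the vacuole and disrupt it.

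The genes lie in gene clusters, and near-identical copies are among them. In the mm10 build, for which RefSeq positions of GRCm38.p6 were used, Gbp5 (chr3:142496934-142522344), Gbp7 (chr3:142530336-142550151), Gbp3 (chr3:142560016-142573213) and Gbp2 (chr3:142620663-142638008) lie side by side with Gbp2b. Gm12250 (chr11:58183843-58190198), Igtp (chr11:58199556-58207592) and Irgm2 (chr11:58214977-58222783) form another cluster. Irgm1 (chr11:48865245-48871420) and Tgtp1 (chr11:48985329-48992246) lie in another cluster with Tgtp2 (chr11:49057196-49064212), a near-identical copy of Tgtp1. The share of reads given to Tgtp1 and Tgtp2 by the counting is uncertain for this reason, and to a lesser degree so is that of the other neighbours.

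Promoter sequences from RefSeq (GRCm38.p6, 250 bases before to 50 after each annotated start) were at hand for 9 of the 10 genes, and were searched on both strands for the ISRE core GAAANNGAAA, the GAS core TTCNNNGAA, which reads the same on both strands, and runs of G able to form G4-DNA. All 9 of these genes had an ISRE core in at least 1 promoter, against 3.44% of 32851 promoters of all genes. A GAS core was found in 6 of the 9, against 8.3% of all promoters, and both cores in 6, against 0.454%. The pattern of 4 runs of 3 G with 1 to 7 bases between them was found in 1 of the 9, Irgm1, against 18.5% of all promoters. No ISRE core overlapped a GAS core. A match of these letters is not by itself a site of binding. The 9 are counted as genes, with a core in any promoter, and the background as single promoters. The genes were chosen as interferon-inducible and some share promoter sequence, so these shares are a description.

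Of these promoters, the bases just before the start of 6 GTPase genes and of Tgtp2 are shown 5′ to 3′ because they carry the arrangements described next, with the letters of ISRE and GAS cores in capitals and all else in lower case.
Igtp (GRCm38.p6 chr11:58199436-58199555, plus strand): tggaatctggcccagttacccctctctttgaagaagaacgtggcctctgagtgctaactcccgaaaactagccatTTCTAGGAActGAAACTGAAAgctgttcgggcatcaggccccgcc
Irgm2 (GRCm38.p6 chr11:58214857-58214976, plus strand): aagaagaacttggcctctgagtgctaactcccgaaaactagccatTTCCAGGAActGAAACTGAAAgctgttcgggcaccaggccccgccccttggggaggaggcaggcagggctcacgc
Tgtp1 (GRCm38.p6 chr11:48992247-48992366, minus strand): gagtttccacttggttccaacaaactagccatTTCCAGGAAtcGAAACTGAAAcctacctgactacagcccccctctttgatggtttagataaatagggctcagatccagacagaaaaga
Tgtp2 (GRCm38.p6 chr11:49064213-49064332, minus strand): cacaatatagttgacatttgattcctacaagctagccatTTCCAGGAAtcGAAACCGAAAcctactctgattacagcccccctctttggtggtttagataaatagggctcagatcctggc
Irgm1 (GRCm38.p6 chr11:48871421-48871540, minus strand): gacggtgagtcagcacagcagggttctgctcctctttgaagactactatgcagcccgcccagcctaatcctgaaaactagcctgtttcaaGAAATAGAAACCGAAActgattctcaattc
Gbp2 (GRCm38.p6 chr3:142620543-142620662, plus strand): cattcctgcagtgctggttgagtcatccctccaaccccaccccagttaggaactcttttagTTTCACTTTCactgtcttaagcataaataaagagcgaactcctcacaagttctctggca
Gbp7 (GRCm38.p6 chr3:142530216-142530335, plus strand): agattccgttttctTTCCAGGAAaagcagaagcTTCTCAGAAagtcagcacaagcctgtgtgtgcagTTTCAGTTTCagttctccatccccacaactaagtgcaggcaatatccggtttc

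In Igtp, Irgm2 and Tgtp1 a GAS core was followed by an ISRE core with 2 bases between them, and Tgtp2 had the same arrangement. Within the 300 bases searched, the longest exact run shared by the promoters of Igtp and Irgm2 was 55 bases, and that shared by Tgtp1 and Tgtp2 was 27. Irgm1 had no GAS core within the 300 bases, but 2 overlapping ISRE cores that started 30 and 24 bases before the start. Gbp2 had 1 ISRE core 59 bases before the start and no GAS core. Gbp3, not printed, had 2 overlapping ISRE cores in the first of its 2 annotated promoters and neither core in the second. Gbp7 had 2 GAS cores and 1 ISRE core, and Gbp5 had the same number of each with its ISRE core farther from the start than in the other genes, at 165 bases.

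**Figure D1:**
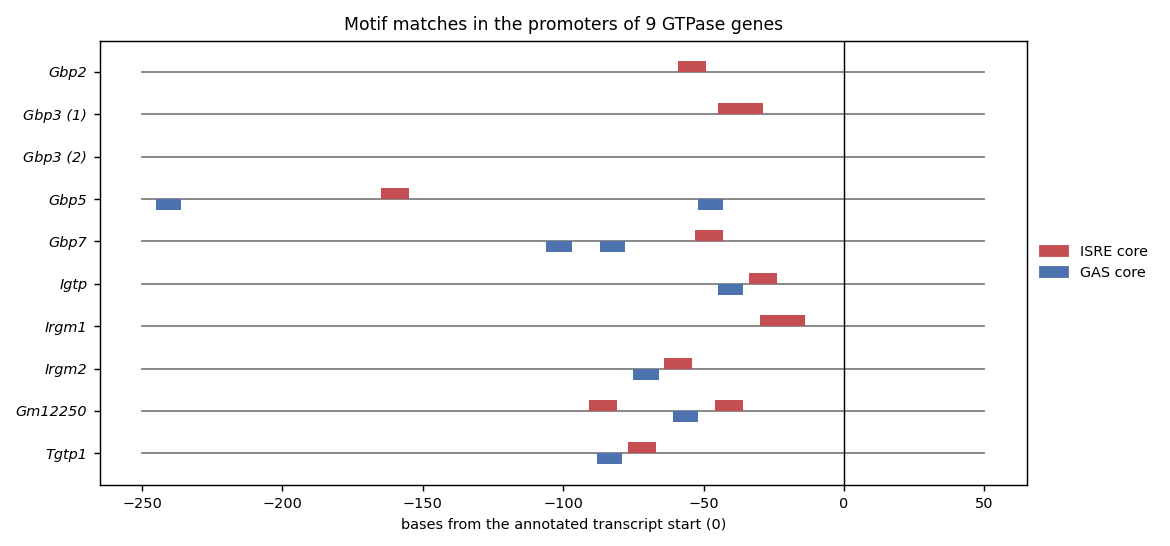
Position of ISRE cores (red) and GAS cores (blue) in bases from the annotated transcript start, for the 9 genes with a promoter sequence. Gbp3 has 2 annotated promoters, and cores of each kind are drawn to scale. Apart from 1 ISRE core and 1 GAS core of Gbp5 and the first GAS core of Gbp7, the cores lie within 100 bases before the start.

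Levels of the 10 genes spanned a wide range within a group. For most of them the Terf1 F/F and Rtel1 F/F lines, both +GFP, differed by more than Cre or TMPyP4 changed either line. Gbp2 and Gbp5 were exceptions, with log2 differences of 0.82 and 2.41 between these lines. Gbp2 changed by -1.95 after Rtel1 deletion, and Gbp5 by -2.95 with TMPyP4. Per unit of transcript length (TPM), Irgm1 was the most abundant in all 7 groups, with 41.9 ± 2.76 TPM (SD, n = 3) in Rtel1 F/F +GFP cells and 39.8% of the summed TPM of the 10. It was followed there by Gbp2 with 32.7 ± 6.84 TPM and Gbp3 with 11 ± 0.35. Igtp was next with 10.2 ± 1.87 TPM and overlapped Gbp3 in its libraries. Irgm2 had 4.59 ± 0.611 TPM, Gbp7 3.52 ± 0.356 and Tgtp1 0.543 ± 0.0252. Gbp5 with 0.393 ± 0.0551 TPM, Iigp1 with 0.187 ± 0.0231 and Gm12250 with 0.18 ± 0.04 were the lowest, and the last pair overlapped. In the Terf1 F/F line several genes, Iigp1 and Gbp2 among them, took other places in this order, while Tgtp1 was seventh as before. Gbp2 went from rank 2 in Rtel1 F/F +GFP cells to rank 6 in Terf1 F/F +GFP cells. Iigp1 had 64.2 ± 6.99 TPM in Terf1 F/F +GFP cells, where it overlapped Irgm2 with 67.5 ± 7.07 and Gbp2 with 56.7 ± 4.34. After Cre it had 220 ± 71.0 TPM, and its libraries overlapped those of the genes next to it in order. The highest there were Irgm1 with 601 ± 101, Gbp3 with 334 ± 75.1 and Igtp with 306 ± 63.7. Gbp5 and Gm12250 stayed the lowest there, with 6.08 ± 1.45 and 15.3 ± 4.02 TPM.

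**Figure D2:**
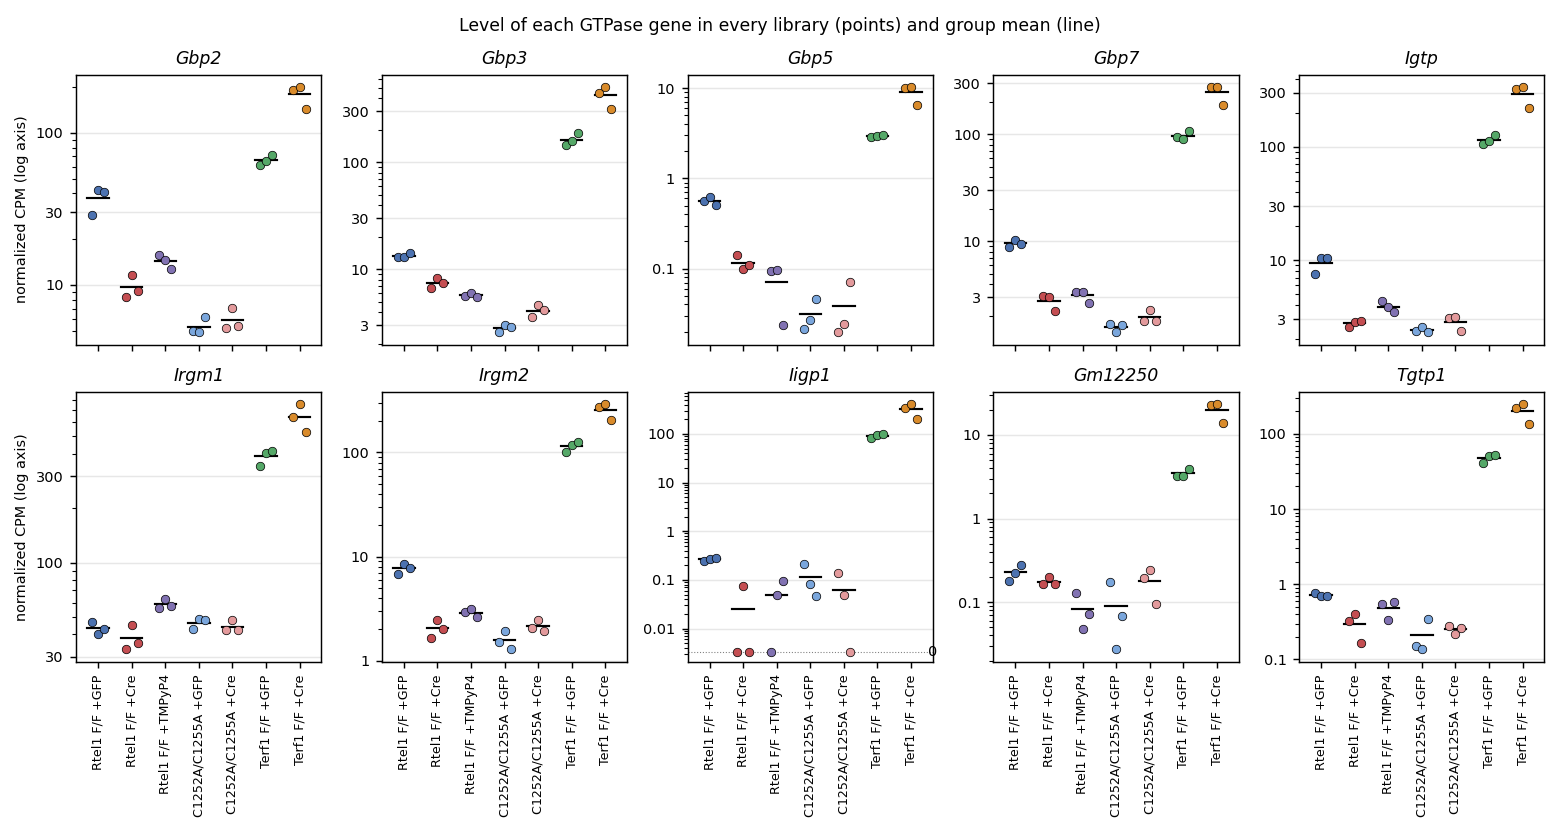
Normalized level (CPM, log axis) of each gene in each library, with the mean of a group as a line. Iigp1 counts of 0 are drawn on the dotted line marked 0. In every panel the 6 Terf1 F/F libraries lie above the other 15, and the 3 Terf1 F/F +Cre libraries above the 3 Terf1 F/F +GFP libraries.

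Deletion of Rtel1 in Rtel1 F/F cells asks which transcripts depend on the helicase, and after it most of the 10 GTPase genes were lower. All 4 GBP genes and Igtp, Irgm2 and Tgtp1 passed the threshold used throughout (adjusted p of at most 0.01 in edgeR over all genes tested), and all 7 were lower in +Cre cells. Of all genes tested, 21% passed in this direction and 22% passed as higher. The levels in these same libraries were among those on which the genes were chosen, so nothing is read from the count. The median log2 change of the 10 was -1.78, against -0.03 for all genes. Libraries of both groups did not overlap for 8 of the 10, which was so, in this direction, for 32.1% of all genes. A difference in culture or batch of the +GFP libraries cannot be told apart from the deletion here.

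Gbp2, whose product is recruited to vacuoles of pathogens, stood at 28.9, 42.2 and 41.1 CPM in +GFP cells and at 8.3, 11.6 and 9.2 in +Cre cells. Gbp7 stood at 8.88, 10.3 and 9.54 CPM against 3.08, 3.0 and 2.21. Every +GFP library was above every +Cre library for both genes, with log2 changes of -1.95 ± 0.17 (SE) and -1.79 ± 0.16. Gbp3 was lower by less, at 13.1, 13 and 14.2 CPM against 6.76, 8.39 and 7.45, a log2 change of -0.83 ± 0.14. Gbp5, which links GBPs to the inflammasome, was near the limit of detection, with 25, 30 and 25 counts in +GFP libraries and 6, 4 and 4 in +Cre libraries. The ratio of its summed, depth-scaled counts was 4.77 with an exact 95% interval of 2.69 to 9.12, which covers counting error only.

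Among the regulators, Igtp stood at 7.61, 10.5 and 10.4 CPM in +GFP cells and at 2.59, 2.85 and 2.89 in +Cre cells, a log2 change of -1.77 ± 0.17. Irgm2 stood at 6.79, 8.47 and 7.81 CPM against 1.65, 2.43 and 2.02, a log2 change of -1.92 ± 0.17. Irgm1, the remaining regulator, did not follow them. Its levels of 47.0, 40.0 and 42.9 CPM in +GFP cells and 33, 45 and 36 in +Cre cells overlapped, and its log2 change was -0.19 ± 0.13. Of the effectors, Tgtp1 stood at 0.757, 0.699 and 0.701 CPM against 0.326, 0.397 and 0.164, a log2 change of -1.25 ± 0.37. Iigp1 had 11, 13 and 14 counts against 0, 3 and 0, a ratio of 10.6 with an exact interval of 3.36 to 53.6. Gm12250 had 8, 11 and 14 counts against 7, 8 and 6, and its libraries overlapped. The call of Tgtp1 was lost whenever 1 of the 6 libraries was left out, and 6 genes then passed.

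In bulk RNA, a lower level can come from fewer cells with the transcript or from less transcript in each cell, and these cannot be told apart here. The summed level of 8 fibroblast markers moved with this comparison, from between 12821 and 13738 CPM in +GFP cells to between 4161 and 6508 in +Cre cells. With TMPyP4 it was between 6231 and 9293 CPM, and in RTEL1 C1252A/C1255A +GFP cells between 4837 and 7868. Of the 8, Col1a1, Col1a2, Col3a1, Pdgfra and Pdgfrb passed as lower after Rtel1 deletion, Dcn and Thy1 passed as higher, and Vim did not pass. Thy1 was near the limit of detection in these cells, at the level given below beside the Terf1 F/F line. The summed level of 7 macrophage markers was between 1.76 and 1.83 CPM in +GFP cells and between 2.98 and 3.85 in +Cre cells, and that of 4 endothelial markers between 0.12 and 0.206 CPM and then between 0.489 and 0.521. The part of these lists in the level of the GTPase genes was not tested.

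TMPyP4 was given to cells that keep Rtel1, to set stabilized G4-DNA beside loss of the helicase. Gbp2, Gbp3, Gbp5, Gbp7, Igtp and Irgm2, 6 of the 10, passed as lower, and Irgm1 passed as higher. Of all genes tested, 13.4% passed as lower and 16.6% as higher, and the median log2 change was -1.40 for the 10 and -0.01 for all genes. Libraries of both groups did not overlap, with the treated ones lower, for 9 of the 10 and for 28.5% of all genes. This comparison shares its 3 +GFP libraries with the comparison of +Cre cells, so values of both are given side by side only. A difference in culture or batch of those libraries cannot be told apart from the ligand either.

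Gbp2 stood at 15.8, 14.5 and 12.8 CPM in treated cells, or 38.4% of the +GFP mean, where +Cre cells had 25.9%. Gbp7 stood at 3.36, 3.35 and 2.67 CPM, or 32.6%, where +Cre cells had 28.8%. Gbp3 stood at 5.64, 6.05 and 5.52 CPM, or 42.8%, where +Cre cells had 56.2%. All treated libraries of these 3 genes were below all +GFP libraries. Gbp5 had 3, 4 and 1 counts, and the ratio of +GFP to treated cells was 8.01 with an exact interval of 3.88 to 19.2.

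Igtp stood at 4.34, 3.83 and 3.46 CPM in treated cells, a log2 change of -1.30 ± 0.16 from +GFP cells. Irgm2 stood at 2.92, 3.11 and 2.65 CPM, a log2 change of -1.41 ± 0.16. Irgm1 went the other way, with 56.0, 63.0 and 57.5 CPM, all above the +GFP libraries, and a log2 change of 0.44 ± 0.12. The call of Irgm1 held in only 1 of the 6 fits that leave out 1 library. Tgtp1 stood at 0.539, 0.337 and 0.573 CPM and did not pass. Iigp1 had 0, 2 and 4 counts and Gm12250 4, 2 and 3, and the ratios of +GFP to treated cells were 5.07 (exact interval 2.13 to 14.7) and 2.94 (1.37 to 6.98).

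Set directly against each other, +Cre and TMPyP4-treated cells gave a single gene of the 10 that passed. Irgm1 was lower in +Cre cells, with a log2 difference of -0.63 ± 0.13, and 9.09% of all genes passed in that direction. Replicate numbers paired the libraries of these groups, and with the number as a block the count was again 1. Gbp2 differed by -0.57 ± 0.17 and Gbp3 by 0.39 ± 0.15 on the log2 scale without passing, which does not show that the groups were alike. Without the third +Cre replicate no gene of the 10 passed.

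**Figure D3:**
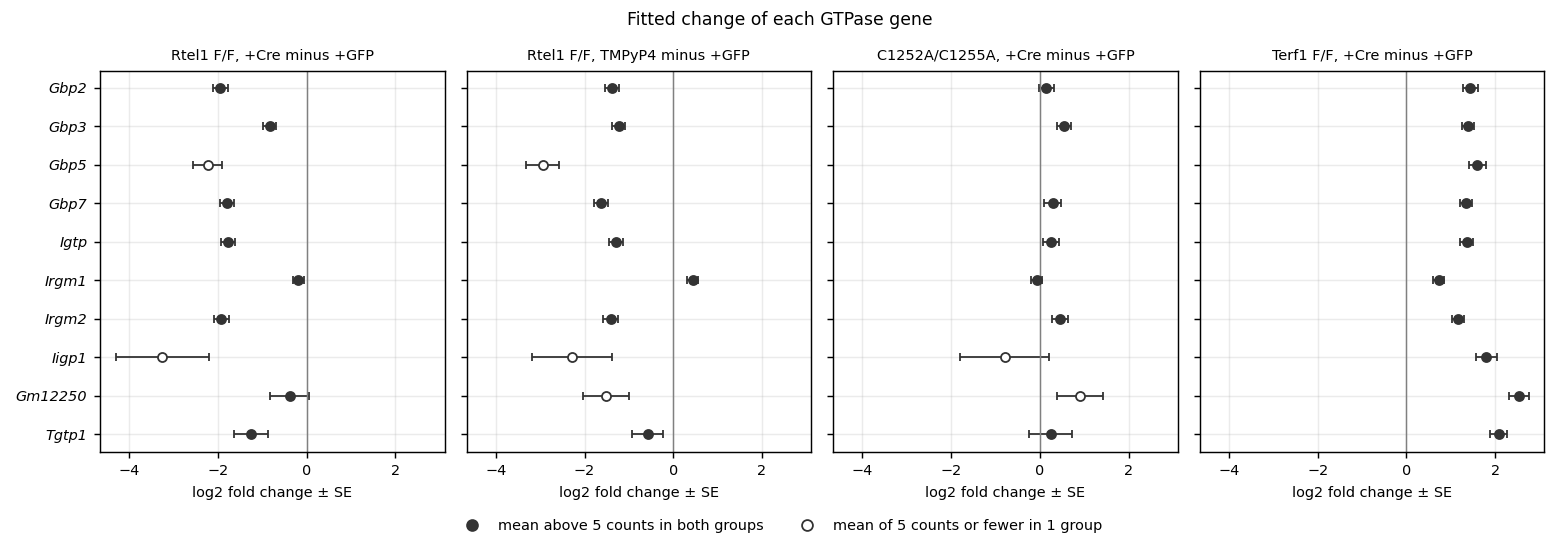
Fitted log2 fold change with its SE for each gene in 4 comparisons. Open points mark comparisons in which a group had a mean of 5 counts or fewer, where the fitted value is uncertain, and Gbp5 is left out of the RTEL1 C1252A/C1255A panel because all 6 libraries had 3 counts or fewer. Most points lie below 0 in the first pair of panels and all lie above 0 in the Terf1 F/F panel, while Irgm1 lies above 0 with TMPyP4.

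In cells with RTEL1 C1252A/C1255A, the effect of Cre shows what is left when only the mutant remains. None of the 10 genes passed there in edgeR and none in DESeq2. Of all genes, 1.09% passed in either direction. An unadjusted p under 0.05 was found for 2 of the 10 and for 14.2% of all genes, from which nothing is read. Gbp3 stood at 2.58, 3.01 and 2.9 CPM in +GFP cells and at 3.63, 4.61 and 4.15 in +Cre cells, so that its libraries did not overlap, with a log2 difference of 0.54 ± 0.16. Gbp2 stood at 4.95, 4.88 and 6.12 CPM against 5.25, 7.09 and 5.4, and its libraries overlapped. Log2 differences of the 9 genes with more than 3 counts in some library were between -0.79 (Iigp1) and 0.91 (Gm12250), both from few counts.

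The undeleted cells of this line already had lower levels of most of the 10 genes than Rtel1 F/F +GFP cells. The part of this in the result after Cre was not tested. Against Rtel1 F/F +GFP cells, RTEL1 C1252A/C1255A +GFP cells passed as lower for 7 of the 10 genes and as higher for 0, with Irgm1, Iigp1 and Gm12250 not passing. Of all genes, 22.1% passed as lower and 22.6% as higher. Libraries did not overlap, with the mutant line lower, for 9 of the 10 and for 33.0% of all genes. Gbp2 was at 14.2% of the Rtel1 F/F +GFP mean, Gbp7 at 16.6%, Irgm2 at 20.4% and Igtp at 25.5%. Gbp5 had 1, 1 and 2 counts, and its ratio was 17.7 with an exact interval of 6.65 to 66.6. Irgm1 stood apart again, at 43.0, 48.6 and 47.7 CPM, which overlapped the Rtel1 F/F +GFP libraries. Both kinds of +GFP cells carry an intact endogenous Rtel1, and the mutant, the vector and the history of the line cannot be told apart in this comparison.

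The libraries of Rtel1 F/F +GFP cells were thus above every other library for 8 of the 10 genes among the 5 groups of Rtel1 floxed cells, and 3 of the comparisons above rest on them. For Gm12250 single libraries of other groups reached into their range, and for Irgm1 the treated cells were highest.

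The Terf1 F/F line had far higher levels before any deletion. All 10 genes passed as higher in Terf1 F/F +GFP than in Rtel1 F/F +GFP cells, where 30.3% of all genes passed as higher and 24.5% as lower. Libraries did not overlap for 10 of the 10 and, in this direction, for 38.4% of all genes. The median log2 difference was 3.60 for the 10 and 0.02 for all genes. Gbp2 differed least, with 61.9, 65.2 and 71.1 CPM and a mean 1.77 times that of Rtel1 F/F +GFP cells. The regulators Irgm1, Igtp and Irgm2 were 8.95, 12.2 and 15.0 times higher. The effector Gm12250 was 15.3 times higher, close to Irgm2. The effectors Tgtp1 and Iigp1 differed most: Tgtp1 was 66.6 times higher at 40.5, 50.8 and 52.4 CPM, and Iigp1 had 3464, 4090 and 4087 counts where Rtel1 F/F +GFP libraries had 11, 13 and 14. Line, genotype, culture and batch cannot be told apart here. Thy1, a surface marker of many fibroblasts, also separated the lines, with 222 to 269 CPM in the 6 Terf1 F/F libraries and at most 0.49 CPM in the other 15.

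Deletion of Terf1, whose loss leaves telomeres fragile, was followed by higher levels of all 10 genes. All 10 genes passed as higher in Terf1 F/F +Cre than in +GFP cells, where 2.65% of all genes passed as higher and 0.765% as lower. Libraries did not overlap for 10 of the 10 and for 13.1% of all genes. The median log2 change was 1.41 for the 10 and 0.00 for all genes, and in linear terms the means were between 1.66 and 5.78 times higher.

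Among the GBPs, Gbp2 stood at 61.9, 65.2 and 71.1 CPM in +GFP cells and at 193, 201 and 144 in +Cre cells, a log2 change of 1.44 ± 0.16. Gbp3 stood at 144, 158 and 186 CPM against 447, 509 and 314, a log2 change of 1.38 ± 0.14. Gbp7 stood at 93.8, 90.7 and 108 CPM against 279, 278 and 189, a log2 change of 1.35 ± 0.14. Gbp5 had a similar change from a low level, with 2.9, 2.97 and 3.05 CPM against 10.2, 10.4 and 6.45 and a log2 change of 1.6 ± 0.18. All +Cre libraries of the 4 genes were above all +GFP libraries.

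The regulators had smaller changes than the effectors. Irgm1 stood at 344, 403 and 416 CPM in +GFP cells and at 644, 757 and 527 in +Cre cells, a log2 change of 0.73 ± 0.12. Irgm2 stood at 101, 118 and 126 CPM against 274, 292 and 205, a log2 change of 1.16 ± 0.14. Igtp stood at 106, 113 and 127 CPM against 323, 339 and 222, a log2 change of 1.35 ± 0.14. For the effectors, Iigp1 stood at 80.3, 94.0 and 101 CPM against 347, 410 and 203, a log2 change of 1.80 ± 0.24. Tgtp1 stood at 40.5, 50.8 and 52.4 CPM against 223, 250 and 136, a log2 change of 2.08 ± 0.19. Gm12250 had the highest change of the 10, with 3.25, 3.26 and 3.95 CPM against 23.0, 23.5 and 13.9 and a log2 change of 2.53 ± 0.22. The order of the fold changes was described from these values, and differences between genes were not tested.

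The third Terf1 F/F +Cre replicate was the lowest of its group for all 10 genes, at 53.6% to 75.3% of the mean of the other two. It was still above every +GFP library, by 1.36 to 3.99 times the +GFP mean, against 1.81 to 6.68 times for the other two. Without it all 10 genes passed again. Without the second replicate Irgm1 no longer passed and 9 genes did. In the T or NK cell list the summed level did not exceed 0.0458 CPM in any library, with Cd3e, Cd3d, Cd8a and Ncr1 at 0 counts in all 21. Of 7 macrophage markers, Adgre1 and C1qa were at 0 in all 21 libraries and Ptprc had at most 3 counts. The summed macrophage list was between 4.80 and 5.91 CPM in +GFP cells and between 5.97 and 6.85 in +Cre cells, mostly Cd68, and the 8 fibroblast markers summed to between 14097 and 20484 CPM against 14907 and 18092. The sum of 4 endothelial markers was between 1.72 and 2.30 CPM in +GFP cells and between 3.48 and 3.99 in +Cre cells, without overlap, and Kdr among them passed as higher (0.90 ± 0.18, adjusted p = 0.00481), a call that held in 0 of 6 fits that leave out 1 library. The sum of 4 epithelial markers was between 0.868 and 0.881 CPM against 1.03 and 1.23. The part of these lists in the level of the GTPase genes was not tested.

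**Figure D4:**
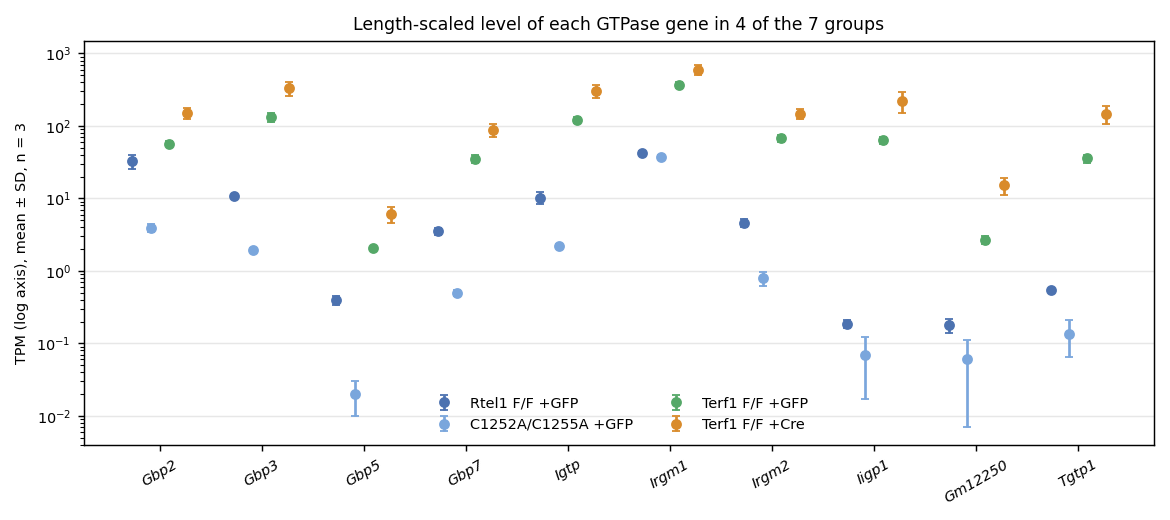
Level per unit of transcript length (TPM, log axis; mean and SD of 3 libraries) of each gene in 4 of the 7 groups. Irgm1 is the most abundant in each, and Iigp1 and Tgtp1 span the widest range between the Rtel1 floxed and the Terf1 F/F groups.

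The effect of Cre was compared between lines by the difference of the log2 changes. Between the Terf1 F/F and Rtel1 F/F lines the difference passed for 10 of the 10 genes, all positive, and for 14.5% of all genes in that direction. It was between 0.92 ± 0.18 for Irgm1 and 5.06 ± 1.0 for Iigp1, and the latter rests on 3 counts in Rtel1 F/F +Cre cells: without their second replicate, in which they were found, it was 8.31. Between the Rtel1 F/F and RTEL1 C1252A/C1255A lines, Gbp2, Gbp3, Gbp7, Igtp and Irgm2 passed with a more negative effect in Rtel1 F/F cells, 5 of the 10 against 12.3% of all genes. Their differences were between -2.37 ± 0.25 for Irgm2 and -1.38 ± 0.22 for Gbp3. Between the Terf1 F/F and RTEL1 C1252A/C1255A lines all 10 differences were positive, and 1 of the 10, Gbp2 at 1.29 ± 0.24, passed, against 0.547% of all genes. That count depended on single libraries, with 4 genes without the third Terf1 F/F +Cre replicate and 0 without any 1 of 10 other libraries.

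Genes of the same families outside the 10 were measured as well, 23 in the table and 18 with enough counts. After Rtel1 deletion 6 of the 18 passed as lower and 1 as higher, and after Terf1 deletion 12 passed as higher and 0 as lower. With TMPyP4 5 passed as lower and 1 as higher, and after Cre in RTEL1 C1252A/C1255A cells none did. Among all genes tested, 21% passed as lower and 22% as higher after Rtel1 deletion, and 13.4% and 16.6% with TMPyP4. After Terf1 deletion 2.65% of all genes passed as higher and 0.765% as lower. In RTEL1 C1252A/C1255A cells 1.09% passed in either direction after Cre. Gbp2b, the neighbour of Gbp2, stood at 3.72, 6.25 and 5.53 CPM in Rtel1 F/F +GFP cells and at 1.86, 2.36 and 1.58 after Cre (log2 change -1.41 ± 0.20, adjusted p = 1.29e-05). Gbp6, from the GBP cluster on another chromosome, had 40, 102 and 101 counts against 5, 6 and 5 (-3.62 ± 0.46, adjusted p = 4.49e-06). Tgtp2, the copy of Tgtp1, had 28, 53 and 74 counts against 4, 0 and 0, a ratio of 32.4 with an exact interval of 12.4 to 120. In each of these 3 genes every +GFP library was above every +Cre library.

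In the Terf1 F/F line, Gbp2b rose by 1.53 ± 0.17 on the log2 scale (adjusted p = 9.62e-06), Gbp6 by 1.67 ± 0.24 (adjusted p = 0.000217) and Tgtp2 by 1.85 ± 0.27 (adjusted p = 0.000295). Gbp9 rose from 63, 60 and 65 counts to 251, 235 and 144 (adjusted p = 0.00105), and was at 5 counts or fewer in all 15 libraries of the Rtel1 floxed cells. Gbp10 had 5, 11 and 6 counts and then 25, 23 and 17, and did not pass (adjusted p = 0.0549). The IRG-like genes Gm4951, Gm4841, F830016B08Rik and Gm5431 rose by between 1.84 and 2.05 on the log2 scale, with adjusted p between 0.000411 and 0.00667, and the call of Gm4841 held in 1 of 6 such fits. Gm4951 and Gm4841 had at most 1 count in each library of the Rtel1 floxed cells and between 160 and 205, and 31 and 38, counts in Terf1 F/F +GFP cells. The antiviral dynamin-like genes Mx1 and Mx2 rose by 1.77 ± 0.18 (adjusted p = 3.61e-06) and 1.25 ± 0.14 (adjusted p = 8.65e-06), and had fallen by 2.58 and 2.22 on the log2 scale after Rtel1 deletion (adjusted p = 0.000593 and 7.08e-07).

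Some relatives behaved otherwise. 9930111J21Rik2 and 9930111J21Rik1, IRG-like genes whose promoters share an exact run of 233 bases, were the exceptions among the genes that passed in Rtel1 F/F cells. The first rose after Rtel1 deletion (1.19 ± 0.24, adjusted p = 0.000322), and the second rose with TMPyP4 (0.69 ± 0.14, adjusted p = 0.000883). Both also rose after Terf1 deletion, by 0.97 ± 0.18 (adjusted p = 0.00178) and 1.13 ± 0.13 (adjusted p = 9.24e-06), and the call of the first held in 3 of 6 fits that leave out 1 library. Irgq, a distant IRG relative, fell by 0.54 on the log2 scale after Rtel1 deletion (adjusted p = 0.000999) and had a log2 change of -0.19 ± 0.12 after Terf1 deletion (adjusted p = 0.493). The very large GTPases Gvin1, Gm4070, Gm8989 and Gm17757 gave no call after either deletion. All Terf1 F/F +Cre libraries were above all Terf1 F/F +GFP libraries for Gvin1, Gm4070 and Gm8989. Counts of single copies differed widely between libraries of a group, and the part of the counting in this was not tested. In the first RTEL1 C1252A/C1255A +Cre replicate Gvin1 had 831 counts and Gm4070 had 1, where the second had 137 and 478.

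Large GTPases that are made without interferon, the atlastins, dynamins and mitofusins with Opa1, served as a comparison. None of these 10 genes passed after Terf1 deletion in edgeR, with log2 changes between -0.26 and 0.14. After Rtel1 deletion 4 passed as higher and 2 as lower, with log2 changes between -0.80 for Dnm1 and 0.70 for Dnm3, which did not pass (adjusted p = 0.0119). Among all genes tested, 22% passed as higher and 21% as lower after Rtel1 deletion, and 2.65% and 0.765% after Terf1 deletion. Only the call of Dnm1 held in all 6 fits that leave out 1 library, and those of Atl2 and Opa1 held in 2.

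**Figure D5:**
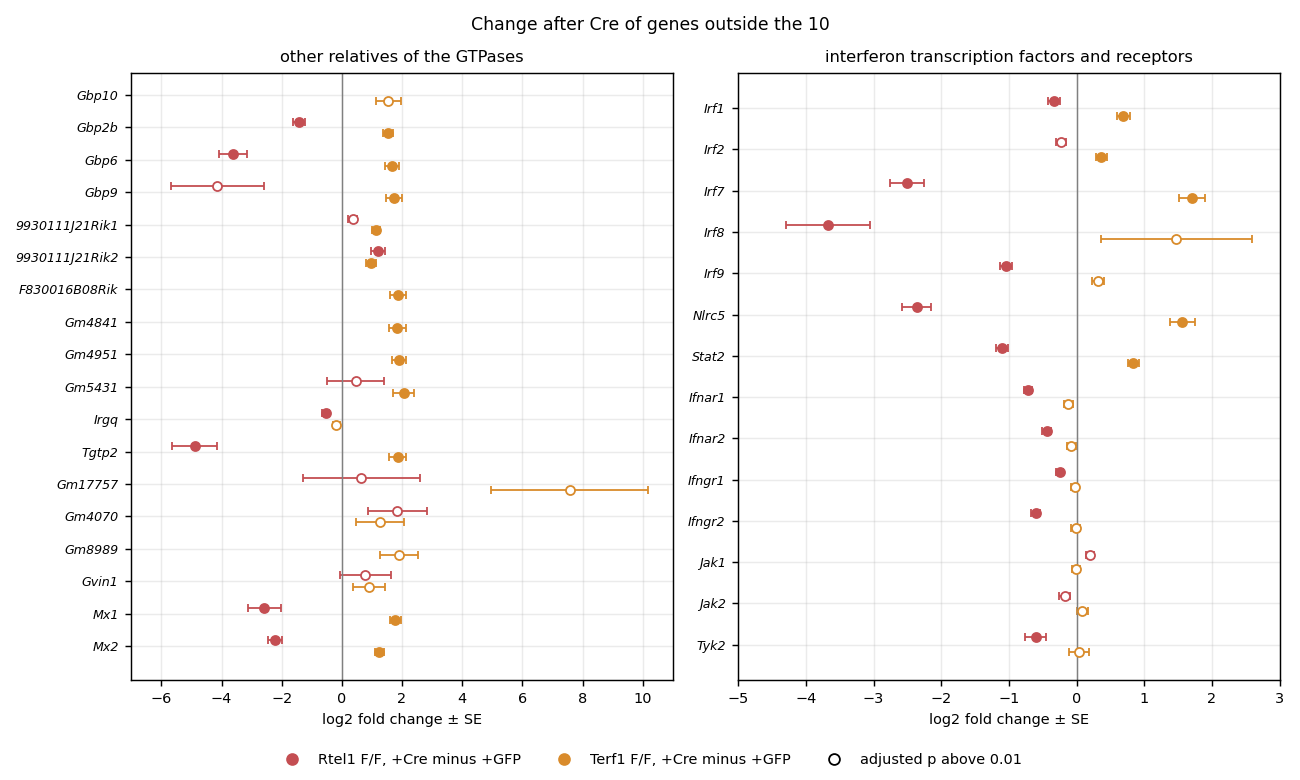
Log2 fold change after Cre with its SE for relatives of the GTPases (left) and for interferon transcription factors, receptors and kinases (right), in the Rtel1 F/F line (red) and the Terf1 F/F line (orange). Filled points passed the threshold, and comparisons with 3 counts or fewer in every library are left out. Stat2, Irf7 and Nlrc5 lie below 0 in red and above 0 in orange.

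Upstream of the GTPase genes, most transcription factors listed for the pathway passed as lower after Rtel1 deletion and as higher after Terf1 deletion. Of 7, 6 passed as lower after Rtel1 deletion, 5 as lower with TMPyP4, none after Cre in RTEL1 C1252A/C1255A cells, and 5 as higher after Terf1 deletion. Among all genes tested, 21% passed as lower after Rtel1 deletion, 13.4% as lower with TMPyP4 and 2.65% as higher after Terf1 deletion. Irf2 did not pass after Rtel1 deletion, and Irf8 and Irf9 did not pass after Terf1 deletion. In fits that leave out 1 library, the call of Irf1 after Rtel1 deletion held in 2 of 6 and that of Irf2 after Terf1 deletion in 0. Irf7, which amplifies type I interferon, stood at 4.34, 5.88 and 6.29 CPM in Rtel1 F/F +GFP cells and at 1.17, 0.993 and 0.71 after Cre, and fell by 2.51 on the log2 scale (adjusted p = 2.88e-07). In the Terf1 F/F line it stood at 133, 128 and 118 CPM and then at 460, 447 and 327, a log2 change of 1.70 ± 0.19 (adjusted p = 1.22e-05). Nlrc5, which drives MHC class I genes, fell by 2.36 (adjusted p = 6.84e-08) and rose by 1.56 ± 0.18 (adjusted p = 1.39e-05). Stat2 fell by 1.10 (adjusted p = 1.94e-08) and rose by 0.84 ± 0.09 (adjusted p = 4.55e-06).

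Receptors and kinases had smaller values. Of 7, 5 passed as lower after Rtel1 deletion, with Ifnar1 lowest at -0.72 ± 0.06 (adjusted p = 5.03e-08), and none after Terf1 deletion, where the log2 changes were between -0.12 and 0.09. Among 7 negative regulators, Usp18, which switches off the type I receptor and is itself induced by interferon, fell by 2.89 on the log2 scale after Rtel1 deletion (adjusted p = 4.09e-10) and rose by 1.03 ± 0.11 after Terf1 deletion (adjusted p = 8.02e-06). Socs3 fell by 1.53 after Rtel1 deletion (adjusted p = 2.23e-07) and did not pass after Terf1 deletion (adjusted p = 0.751). In all, 4 of the 7 passed as lower and 1 as higher after Rtel1 deletion, with the calls of Cish and Pias1 held in 2 and 3 of 6 fits that leave out 1 library, and 1 passed as higher after Terf1 deletion. Among all genes tested, 21% passed as lower and 22% as higher after Rtel1 deletion, and 2.65% as higher after Terf1 deletion.

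Transcripts of interferons themselves were few. Ifng had 0 counts in all 21 libraries, which allows up to 3 counts in each. Ifnb1 had 8, 13 and 8 counts in Terf1 F/F +GFP cells and 56, 89 and 35 in +Cre cells (log2 change 2.61 ± 0.44, adjusted p = 0.00117), and at most 3 counts in each of the other 15 libraries. Ifna4 had 5, 5 and 7 counts and then 12, 24 and 17 (adjusted p = 0.0728), and 0 in the other 15. The call of Ifnb1 held in 4 of 6 fits that leave out 1 library.

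Other interferon-stimulated genes were counted by 2 lists. Of 12 genes of a type I list, all 12 passed as higher after Terf1 deletion, led by Ifi44l (2.53 ± 0.23, adjusted p = 7.79e-05) and Oasl1 (2.28 ± 0.15, adjusted p = 7.9e-08), and 6 passed as lower after Rtel1 deletion, led by Ifi44 (-3.40 ± 0.32, adjusted p = 1.39e-07). Of 6 tested genes of a list tied to interferon gamma, 4 passed as higher after Terf1 deletion, with Cxcl10 at 2.20 ± 0.17 (adjusted p = 3.19e-07), and 5 as lower after Rtel1 deletion, with the immunoproteasome subunit Psmb8 at -3.42 ± 0.26 (adjusted p = 1.05e-08). Cxcl10 did not pass after Rtel1 deletion, with overlapping libraries and a log2 change of 0.38 ± 0.16 (adjusted p = 0.0571). Among all genes tested, 2.65% passed as higher after Terf1 deletion and 21% as lower after Rtel1 deletion. The lists were written with earlier results of these data known.

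Genes of the machinery that loads these GTPases onto membranes were counted as well. None of 10 genes of the ATG8 conjugation system and none of 6 genes of protein prenylation passed after Terf1 deletion in edgeR. Log2 changes of the 6 prenylation genes there were between -0.09 for Zmpste24 and 0.04 for Icmt. After Rtel1 deletion, 3 of the 10 ATG genes passed as higher and 4 as lower, with Map1lc3a at -1.13 ± 0.14 (adjusted p = 3.74e-06), and 3 of the 6 prenylation genes as higher and 1 as lower. Among all genes tested, 22% passed as higher and 21% as lower after Rtel1 deletion, and 2.65% and 0.765% after Terf1 deletion. Nothing is read from the counts of these lists. The calls of Fnta and Zmpste24 held in 2, that of Pggt1b in 4 and that of Rce1 in 1 of the 6 fits that leave out 1 library, and that of Gabarap among the ATG genes in 3. Of 3 tested inflammasome genes, Gsdmd, the pore-forming protein downstream of GBPs, rose by 0.66 ± 0.11 after Terf1 deletion (adjusted p = 0.000899). Casp4, the receptor for cytosolic lipopolysaccharide, rose by 1.07 ± 0.20 (adjusted p = 0.00261), a call that held in 1 of 6 fits that leave out 1 library. Il18, the remaining gene, did not pass there (0.14 ± 0.20, adjusted p = 0.812). After Rtel1 deletion Casp4 passed as lower (-1.40 ± 0.24, adjusted p = 9.35e-05), a call that held in all 6 such fits. Gsdmd and Il18 did not pass after Rtel1 deletion.

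Across the 21 libraries the 10 genes moved together, mostly along the difference between lines. The 45 pairwise Pearson correlations of log2 CPM were between 0.86 and 0.998, with a median of 0.97. After the mean of each line was taken out, they were between 0.15 and 0.98 with a median of 0.79, and Irgm1 was least like the mean of the 10, at 0.47. The genes outside the 10 whose log2 CPM was most like the mean of the 10 included Parp12, Ddx58, Dtx3l, Trim21, Trim25, Shisa5, Ifit3, Ifit1 and Parp9, with correlations between 0.995 and 0.998 over the 21 libraries and between 0.917 and 0.988 within lines. All points share libraries and depth, and most of the spread lies between the Terf1 F/F line and the rest, so these values are a description.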

How the data were processed

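RNA-seq of 21 MEF libraries in 7 groups of 3 was analysed from the deposited gene table. Per the labels and the study's methods, the authors removed adapters by cutadapt 1.9.1, and RSEM 1.3.0, run over STAR 2.5.2a alignments to mm10, gave strand-specific values for RefSeq genes. The deposited expected counts were un-normalized and whole, and the deposited TPM values were used for levels between genes. RSEM shares reads between near-identical copies by its model, so counts of such copies are uncertain.

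Samples were grouped by their labels. The 10 genes, the gene lists and the comparisons were chosen with earlier results of these data known. Counts were scaled by TMM and tested with edgeR 4.0.16 (R 4.3.3), by a quasi-likelihood fit over all 21 libraries with 1 coefficient per group and 14 residual degrees of freedom, after filterByExpr, on 13719 of 24454 genes. P-values were adjusted by Benjamini-Hochberg over all genes tested, with 0.01 as the threshold. Log2 fold changes carry the SE of the fit. CPM values carry no pseudocount. Exact 95% intervals of count ratios and the floor of 3 counts cover counting error only. The script was tested on simulated data. Correlations used log2 CPM with a prior count of 2.

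As alternatives, edgeR was replaced by DESeq2 1.42.0, or TMM by the scaling of DESeq2, and the others were different filters, thresholds and sets of libraries, each library left out in turn, and the replicate number as a block. Numbers were taken to pair libraries where deviations from group means, over 11840 genes, correlated above 0.1 in each of the 3 pairs. This held within the mutant line (0.90, 0.89 and 0.50) and between deleted and ligand-treated Rtel1 F/F cells (0.81, 0.84 and 0.49), where the pairing comes from these correlations and not from the labels.

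Named genes were the 10, Rtel1 and Terf1, the tested relatives, up to 4 called genes of each other list with the largest change at a mean of at least 1 CPM, and the 10 genes most like the mean of the 10. A single item under this rule is not reported here. Ifnb1, Ifna4, Ifng, Casp4, Dnm3 and the fibroblast and other cell type markers were named after their values were seen. Promoters and positions are RefSeq's, of GRCm38.p6, with 250 bases before and 50 after each start.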

Additional observations from a re-analysis of the deposited data

Results flagged for a closer look

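Differences between lines in the effect of Cre on these genes passed the threshold for the values listed here. The genes were picked on these same libraries, so the values are a description and the test supports nothing. The effect in Terf1 F/F cells exceeded that in Rtel1 F/F cells by 3.39 for Gbp2, 2.21 for Gbp3, 3.83 for Gbp5 and 3.14 for Gbp7. Among the IRGs it was 0.92 for Irgm1, 3.13 for Igtp, 3.08 for Irgm2, 5.06 for Iigp1, 2.92 for Gm12250 and 3.34 for Tgtp1. Against RTEL1 C1252A/C1255A cells, the effect in Terf1 F/F cells was higher by 1.29 for Gbp2. The effect in Rtel1 F/F cells less that in RTEL1 C1252A/C1255A cells was -2.10 for Gbp2, -1.38 for Gbp3, -2.07 for Gbp7, -2.02 for Igtp and -2.37 for Irgm2. Levels in the undeleted cells of the lines also differed, and the part of that difference in these values was not tested.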

How the results depend on the processing

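Among the values of single genes under all alternatives, 1464 kept their direction and side of the threshold, 41 lost and 21 gained a call, and 5 changed sign, all of them uncalled and each with 1 library left out. For RTEL1 C1252A/C1255A +Cre against +GFP cells, the log2 change of Gbp2 was between -0.014 (without the second +Cre replicate) and 0.26, that of Gbp5, which had 3 counts or fewer in each library, between -0.48 (without the third +Cre replicate) and 0.58, and that of Iigp1 between -2.16 and 0.087 (without the first +GFP replicate). For Rtel1 F/F +Cre against TMPyP4-treated cells that of Gbp7 was between -0.28 and 0.0032 (without the third +Cre replicate).

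A filter of at least 10 counts in every library left 6 of the 10 genes and 4 relatives. By construction it lowered the number of the 10 that passed to 6 for Terf1 deletion, 6 for the Terf1 F/F against Rtel1 F/F +GFP cells and 6 for the Terf1 F/F less Rtel1 F/F effect. Passing relatives were then 3 for Rtel1 deletion, 3 for TMPyP4, 3 for Terf1 deletion, 4 for RTEL1 C1252A/C1255A against Rtel1 F/F +GFP cells, 3 for Terf1 F/F against Rtel1 F/F +GFP cells, 2 for the Terf1 F/F less Rtel1 F/F effect and 2 for the Rtel1 F/F less RTEL1 C1252A/C1255A effect. A minimum log2 change of 1 gave 3 relatives for TMPyP4 and 0 of the 10 for +Cre against TMPyP4. An adjusted p of at most 0.05 gave 3 of the 10 and 2 relatives for +Cre against TMPyP4, and 4 of the 10 for the Terf1 F/F less RTEL1 C1252A/C1255A effect. With only the groups compared in the fit, the 10 gave 0 for +Cre against TMPyP4 and 0 for the Terf1 F/F less RTEL1 C1252A/C1255A effect, and relatives gave 0 for that effect and 3 for the Rtel1 F/F less RTEL1 C1252A/C1255A effect. DESeq2 gave 5 of the 10 for the Terf1 F/F less RTEL1 C1252A/C1255A effect and 1 relative for +Cre against TMPyP4. For that same effect, DESeq2 size factors, no filter and the replicate block each gave 0 of the 10. The cause of the changes not due to the filter was not tested.

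With 1 library left out, the number of the 10 that passed was 6 to 6 for Rtel1 deletion, 6 to 7 for TMPyP4, 9 to 10 for Terf1 deletion, 0 to 1 for +Cre against TMPyP4, 7 to 8 for RTEL1 C1252A/C1255A against Rtel1 F/F +GFP cells and 0 to 4 for the Terf1 F/F less RTEL1 C1252A/C1255A effect. Passing relatives ranged from 3 to 6 for TMPyP4, with 3 without the second Rtel1 F/F +GFP replicate, from 0 to 1 for the Terf1 F/F less RTEL1 C1252A/C1255A effect and from 3 to 6 for the Rtel1 F/F less RTEL1 C1252A/C1255A effect.

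With the replicate number as a block, 0 of the 10 passed for Cre in RTEL1 C1252A/C1255A cells and 1 for +Cre against TMPyP4, so the block changed no call among the paired comparisons. The number did not pair the libraries elsewhere, with correlations of -0.03, 0.05 and 0.21 for Rtel1 deletion, -0.02, 0.06 and 0.17 for TMPyP4 and 0.56, 0.41 and -0.18 for Terf1 deletion. The block there gave 6, 7 and 10 of the 10. Depth limits Gbp5, Iigp1, Gm12250 and Tgtp1 in the Rtel1 floxed cells, where libraries held 35 counts or fewer of each.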
